A study of Mus musculus with 13 samples.

Results

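Glycolysis and the carbon pathways that branch from it were followed in mouse thymocytes with and without Rad21, the cohesin subunit whose gene was deleted. The genes were 35 named members, from glucose uptake to lactate export with the pyruvate dehydrogenase switch and the pentose phosphate pathway, picked by symbol, with earlier results of these data known. Of these, 34 matched a row among the 17849 genes of the RNA table, Pgam1 was not analysed here, and 33 passed the filter on low counts. Aldoc, the brain-type aldolase, had 0 counts in all 4 libraries, each of which puts a limit of 3 counts, or 0.410 to 0.417 CPM (a count scaled to the library's size), on its level.

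The RNA-seq compared 2 libraries labelled Rad21 KO with 2 labelled wild type, all from CD4+ CD8+ double-positive thymocytes isolated by sorting, when T cell precursors carry both coreceptors. For these libraries the labels state no age, sex or strain, and give only the genotype Rad21 KO, with no word on the means of deletion. Ribosomal RNA was depleted from total RNA before sequencing. The series also holds ChIP-seq and Hi-C samples, 13 samples in all, which bear on other questions and were not used here.

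Rad21 RNA stood at 67.9 and 65.7 CPM in the knockout libraries and at 271 and 233 in wild type. Totals ran from 6500819 to 9384505 counts. The gene Lars2 and the noncoding gene Gm15564 made up 34.5% of Rad21 KO replicate 1 and 12.6% of replicate 2, compared with 5.84% and 7.47% of the wild type libraries, and without them the totals ran from 6015242 to 6245781. Of 10 double-positive markers 0 were higher and 4 lower (Rag1, Rag2, Dntt and Lck), and their summed level was 9545 and 10884 CPM in the knockout against 13591 and 15139. Without Rag1, the marker with the largest difference in CPM, the sums were 6230 and 7056 CPM against 7954 and 8942. The 6 erythroid markers in the table summed to 3.88 to 8.62 CPM over the 4 libraries. In the other lists 1 marker carried most of each difference, and the sums are therefore given with and without it, a choice made after the values were seen. Myeloid markers (11) summed to 18.6 to 24.0 CPM in the knockout and 31.97 to 37.0 in wild type. Itgam, the myeloid marker called lower, stood at 8.35 and 8.62 CPM against 17.5 and 23.96, and without it the sums overlapped (10.3 and 15.4 against 14.5 and 13.02). NK markers (6) summed to 17.0 to 21.96 CPM against 12.7 to 15.03, and without Gzma they too overlapped (7.12 and 6.12 against 8.74 and 5.12). The 7 B cell markers summed to 385 to 429.5 CPM against 329 to 342, most of it Ighm (410.0 and 357 against 312 and 305), with Ms4a1 and Pax5 at 12 counts or fewer over the 4 libraries. Without Ighm the B cell sums overlapped. The 7 activated T cell markers summed to 169 to 219.6 CPM against 146 to 153, mostly Cd69, and without Cd69 the order turned (27.2 and 26.8 against 34.4 and 36.7). That turn rests on Cd44, the marker of that list called lower, at 1.51 and 2.36 CPM against 13.1 and 13.4. Tnfrsf4 (3.56 and 2.36 CPM against 1.09 and 1.66) and Tnfrsf9 (3.29 and 1.67 against 1.23 and 0.415) stood higher without passing. Il2ra overlapped between the genotypes. The 10 markers of thymic stroma and epithelium summed to 121 to 134 CPM against 169 to 172, mostly Pecam1, which was called lower (96.5 and 103 against 150.4 and 147). Without Pecam1 the order turned, with 24.9 and 31.7 CPM in the knockout and 21.5 and 21.5 in wild type. That turn rests on Epcam, which was called higher, at 9.45 and 11.7 CPM against 1.503 and 0.969. Among the rest Krt5, Krt8 and Foxn1 had 12 counts or fewer over the 4 libraries and Pdgfra had 0. Col1a2, not tested, had 0 and 1 counts in the knockout against 14 and 9. What part these marker differences play in the results below was not tested. Without Lars2 and Gm15564 in the counts the same 6 members passed as with them.

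Glycolysis breaks glucose down to pyruvate in the cytosol. Hexokinases trap glucose as glucose 6-phosphate, phosphofructokinases commit it to the pathway, and pyruvate kinase makes the last ATP. Pyruvate then enters mitochondria through the pyruvate dehydrogenase complex or is reduced to lactate and exported, while the pentose phosphate pathway draws off glucose 6-phosphate for NADPH and ribose. Thymocytes and T cells are known to raise glucose uptake and glycolysis when they proliferate or are activated, and small resting double-positive cells are known for low glucose uptake.

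In the Rad21 knockout, 5 members rose and 1 fell. Both glucose transporters in the set, hexokinase 2, the platelet-type phosphofructokinase and pyruvate kinase were higher, by 1.43- to 6.20-fold, and the lactate and pyruvate transporter Slc16a1 was lower. The other 27 tested members did not pass an adjusted p of 0.05 in edgeR's quasi-likelihood test, from which all adjusted p-values here come. With no filter on low counts Hk2 alone passed. The share higher was 15.2% of the tested members, beside 7.6% of all 12003 genes tested (912 genes). The share lower was 3.03%, beside 5.17% of all genes (621 genes). The median log2 fold change was 0.14 over the 33 members and -0.01 over all genes. The 2 genotypes did not overlap in 20 of the 33 tested members, 14 with the knockout above and 6 with it below. In all this was close to the 58.9% of all genes that did not overlap (29.7% above and 29.2% below). An unadjusted p under 0.05 was found for 12 members and for 29.4% of all genes. In bulk RNA, fewer cells of a type and less RNA per cell cannot be told apart.

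**Figure D1:**
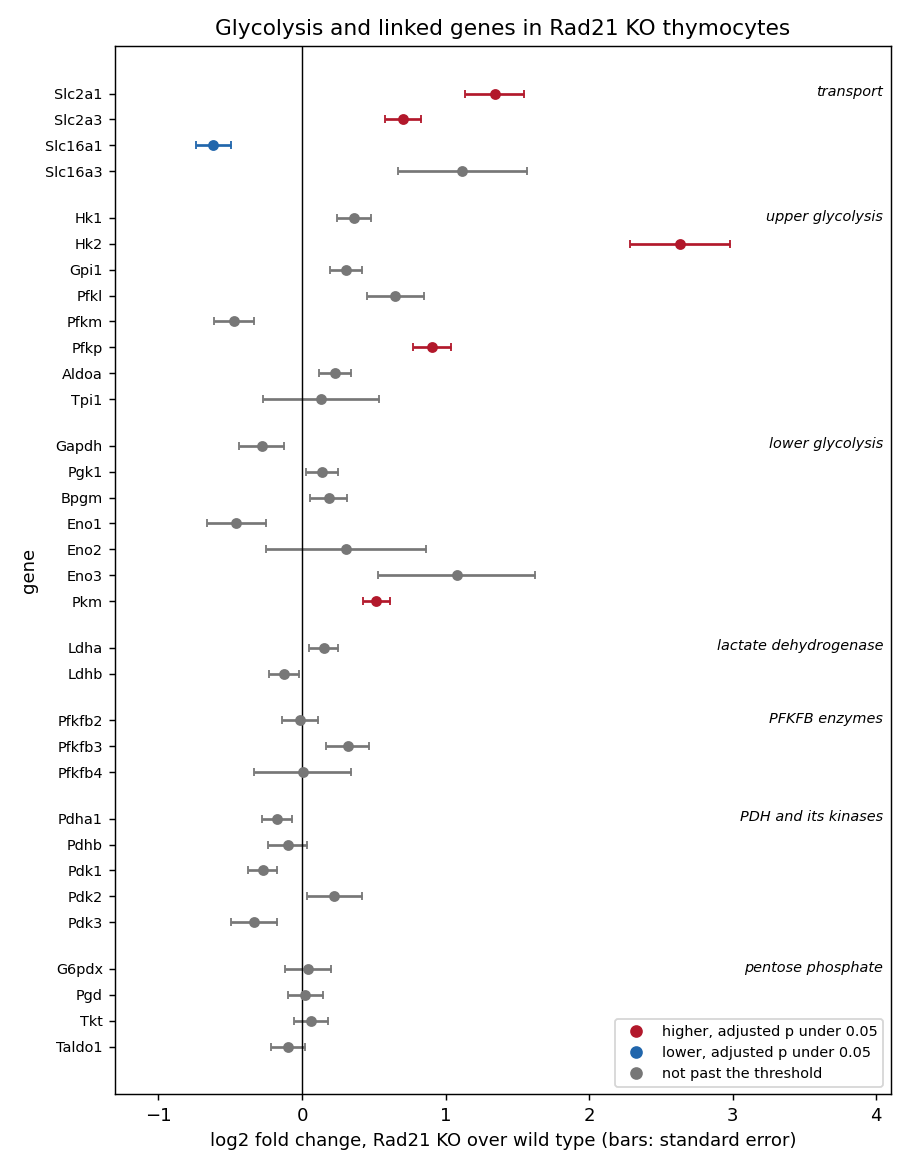
Log2 fold change of each of the 33 tested members, Rad21 KO over wild type, with bars of 1 standard error, grouped by role. The 5 genes in red (Slc2a1, Slc2a3, Hk2, Pfkp and Pkm) passed the threshold upward and Slc16a1, in blue, passed it downward.

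The promoters of the members past the threshold are shown because genes of this pathway are known as shared targets of hypoxia-inducible factors, which bind the core ACGTG or GCGTG, and of E-box factors such as MYC, which bind CACGTG. RefSeq windows (GRCm38.p6, first listed start of each gene) were found for 34 of the 35 members, and Slc2a3 was not matched. The sequences are the 250 bases before the start, 5′ to 3′ on the gene's strand, with every match to the 3 motifs on either strand in capitals. ACGTG and GCGTG on the other strand appear as CACGT and CACGC, and a CACGTG also counts as ACGTG on both strands.
Slc2a1, chr4:119108495-119108744, plus strand: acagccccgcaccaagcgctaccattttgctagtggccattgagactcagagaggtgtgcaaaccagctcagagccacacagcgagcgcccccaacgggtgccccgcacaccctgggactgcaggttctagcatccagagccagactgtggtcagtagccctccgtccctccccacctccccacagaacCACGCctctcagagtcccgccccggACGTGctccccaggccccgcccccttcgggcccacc
Hk2, chr6:82774455-82774704, minus strand: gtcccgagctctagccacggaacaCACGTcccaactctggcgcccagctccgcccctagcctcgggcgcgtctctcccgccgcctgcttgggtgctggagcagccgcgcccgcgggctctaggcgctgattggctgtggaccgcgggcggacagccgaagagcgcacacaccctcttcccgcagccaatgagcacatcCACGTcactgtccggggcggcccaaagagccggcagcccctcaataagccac
Pfkp, chr13:6648772-6649021, minus strand: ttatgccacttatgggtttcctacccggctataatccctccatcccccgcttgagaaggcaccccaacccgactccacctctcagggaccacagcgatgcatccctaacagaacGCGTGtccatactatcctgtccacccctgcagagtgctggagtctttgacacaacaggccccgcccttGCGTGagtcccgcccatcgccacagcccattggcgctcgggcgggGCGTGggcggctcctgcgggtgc
Pkm, chr9:59656326-59656575, plus strand: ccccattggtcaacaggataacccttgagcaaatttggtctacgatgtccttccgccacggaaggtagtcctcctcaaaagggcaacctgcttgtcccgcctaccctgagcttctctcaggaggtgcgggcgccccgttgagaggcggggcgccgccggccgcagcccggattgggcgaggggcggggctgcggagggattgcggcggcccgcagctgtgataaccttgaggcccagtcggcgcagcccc
Slc16a1, chr3:104638414-104638663, plus strand: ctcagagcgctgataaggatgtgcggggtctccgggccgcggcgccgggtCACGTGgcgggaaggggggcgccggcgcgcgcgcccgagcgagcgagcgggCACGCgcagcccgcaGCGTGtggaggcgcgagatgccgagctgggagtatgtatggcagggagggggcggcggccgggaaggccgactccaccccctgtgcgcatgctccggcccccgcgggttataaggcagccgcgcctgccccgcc
Slc2a1 held 1 ACGTG and 1 GCGTG, Hk2 held 2 ACGTG, Pfkp held 3 GCGTG and Pkm none of the 3 motifs. Slc16a1, the member that fell, held 1 CACGTG and 2 GCGTG. Over the 34 member windows, 38.2% held ACGTG, 58.8% GCGTG and 14.7% CACGTG, beside 16.6%, 28.2% and 6.05% of the first windows of all 27025 genes. Those are all genes with a RefSeq window, whether or not they had a row in the RNA table or were tested. The member windows were also richer in G and C, with a median of 60.8% against 52.0%, and all 3 motifs are mostly G and C. ACGTG or GCGTG was held by 4 of the 5 printed windows (80.0%) and by 27 of the 34 member windows (79.4%). The share of the first windows of all genes was 38.6%. The matches thus do not set the members past the threshold apart from the other members. One member that did not pass, Ldha, had 5 ACGTG matches that include 2 CACGTG sites on both strands. A match is a run of letters and does not show that a factor binds.

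Glucose enters these cells through facilitative transporters. Slc2a1, which encodes GLUT1, stood at 45.4 and 51.6 CPM in the knockout libraries and at 22.8 and 15.4 in wild type. Both knockout libraries lay above both wild type libraries, and the log2 fold change was 1.34 ± 0.21 SE (edgeR adjusted p = 0.00893). Only 2.81% of the tested genes had a larger log2 fold change. Slc2a3, which encodes the high-affinity transporter GLUT3, stood at 57.2 and 58.8 CPM against 36.8 and 34.5 (log2 fold change 0.70 ± 0.12 SE, edgeR adjusted p = 0.0146). The replicates of Slc2a3 lay close together in each genotype, and its call was lost without wild type replicate 2 (0.65, edgeR adjusted p = 0.0631).

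Hk2 and Hk1 encode the hexokinases that carry out the first step. Hk2, the inducible form that binds the outer mitochondrial membrane, stood at 13.8 and 23.9 CPM in the knockout and 2.60 and 3.46 in wild type, from 101 and 172 counts against 19 and 25. This was the largest log2 fold change of any member, at 2.63 ± 0.35 SE (edgeR adjusted p = 0.00565), and it ranked 60 among the 12003 tested genes. The knockout libraries differed from each other for this gene, yet each was well above wild type. Hk1, the broadly expressed form, stood at 128 and 112 CPM against 96.2 and 90.0 and did not pass (log2 fold change 0.36 ± 0.12 SE, edgeR adjusted p = 0.0905). Gpi1, the isomerase of the next step, stood at 178 and 166 CPM against 149 and 129 (0.31 ± 0.11 SE, edgeR adjusted p = 0.125). For both genes the groups did not overlap, with the knockout above, as was so for 29.7% of all genes tested.

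Phosphofructokinase has 3 genes whose products form mixed tetramers. Pfkp, the platelet type, rose from 165 and 142 CPM in wild type to 263 and 314 in the knockout (log2 fold change 0.91 ± 0.13 SE, edgeR adjusted p = 0.00705). Pfkl, the liver type, stood at 50.1 and 51.6 CPM in the knockout and 39.1 and 25.6 in wild type (0.65 ± 0.20 SE, edgeR adjusted p = 0.0807). Its wild type libraries were far apart, and without wild type replicate 1 it passed (0.99, edgeR adjusted p = 0.0101). Pfkm, the muscle type, stood lower, at 27.7 and 31.1 CPM against 41.8 and 40.0, and did not pass (-0.48 ± 0.14 SE, edgeR adjusted p = 0.0682). Groups overlapped in none of the 3 genes, and 58.9% of all genes tested likewise did not overlap.

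Aldolase and triose phosphate isomerase follow. Aldoa, the main aldolase here, stood at 90.8 and 94.9 CPM in the knockout and 81.4 and 77.1 in wild type (log2 fold change 0.23 ± 0.11 SE, edgeR adjusted p = 0.224). Tpi1 stood at 16.8 and 10.7 CPM against 7.52 and 17.6, with the groups overlapping (0.14 ± 0.40 SE, edgeR adjusted p = 0.861). Leaving out 1 library moved the value of Tpi1 from -0.35 to 0.87, so its sign is not settled. Mouse Gapdh, Aldoa, Tpi1, Eno1 and Ldha are known to have processed pseudogenes with near-identical sequence. How the authors' counting divided such reads is not stated, which leaves the counts of these genes uncertain.

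**Figure D2:**
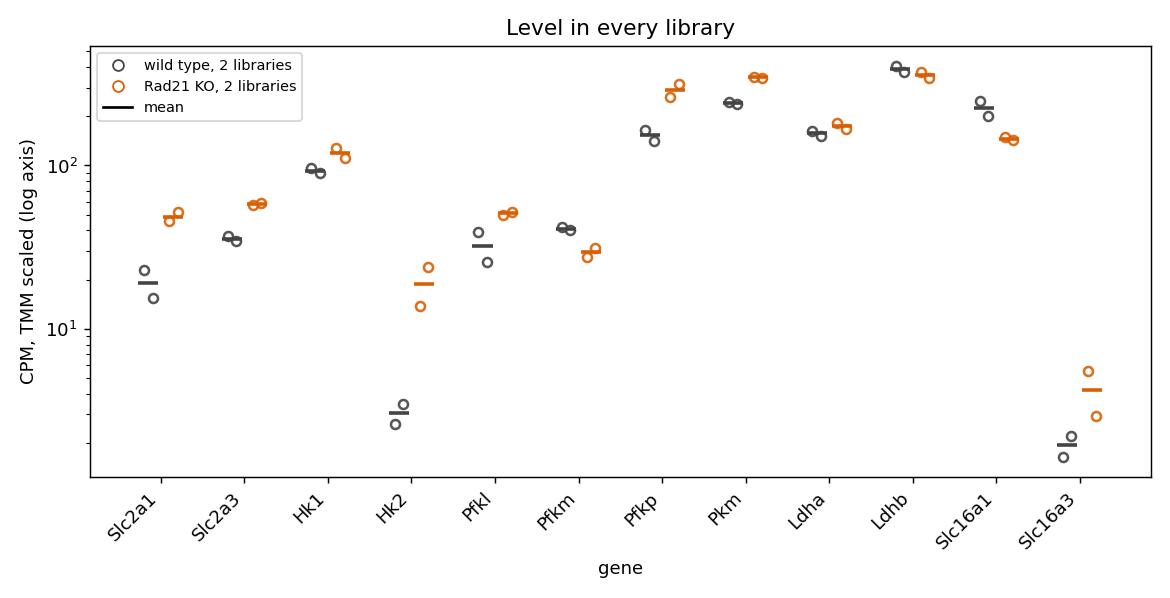
Level of 12 members in each library, in CPM on a log axis, with wild type in grey, Rad21 KO in orange and the mean as a line. Slc2a1, Slc2a3, Hk2, Pfkp and Pkm lie higher in both knockout libraries, Slc16a1 lies lower, and Ldhb overlaps between the genotypes.

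In the energy-yielding steps 1 of 7 members passed. Pkm, which encodes pyruvate kinase M and whose window printed above holds no motif match, stood at 351 and 345 CPM in the knockout and 246 and 239 in wild type. Its replicates nearly coincided, and the log2 fold change was 0.52 ± 0.09 SE (edgeR adjusted p = 0.0157). Without wild type replicate 2 it did not pass (0.49, edgeR adjusted p = 0.0678). The table has 1 value per gene, so the M1 and M2 splice forms of Pkm cannot be told apart.

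Gapdh, which oxidizes glyceraldehyde 3-phosphate, stood at 88.4 and 119.7 CPM in the knockout and 133 and 119.5 in wild type (-0.28 ± 0.16 SE, edgeR adjusted p = 0.290). Pgk1, the first ATP-making enzyme, stood at 82.4 and 83.1 CPM against 75.2 and 75.1 (0.14 ± 0.11 SE, edgeR adjusted p = 0.445). Bpgm, which makes 2,3-bisphosphoglycerate and is best known from red cells, stood at 119.2 and 98.5 CPM against 93.3 and 98.1 (0.19 ± 0.13 SE, edgeR adjusted p = 0.384). None of these genes passed, and for Gapdh the groups overlapped.

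Among the enolases, Eno1 stood at 98.8 and 159 CPM in the knockout and 179.8 and 174 in wild type (-0.46 ± 0.20 SE, edgeR adjusted p = 0.190). The value rests on Rad21 KO replicate 1: without replicate 2 the log2 fold change was -0.83 (edgeR adjusted p = 0.00552), and without replicate 1 it was -0.15. Eno3, the muscle enolase, stood at 9.31 and 2.92 CPM against 3.01 and 2.77 and likewise passed only without Rad21 KO replicate 2 (1.70, edgeR adjusted p = 0.0208). Replicate 1, the library with the larger share of Lars2 counts, thus stood apart for both enolases, in opposite directions. Without Lars2 and Gm15564 the value of Eno1 was -0.47, and without Rad21 KO replicate 1 that of Eno3 was 0.02. Eno2, the neuronal enolase, stood at 2.05 and 5.28 CPM against 1.91 and 4.02, from 14 to 38 counts, and overlapped between the genotypes (0.30 ± 0.56 SE, edgeR adjusted p = 0.765).

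Lactate dehydrogenase turns pyruvate into lactate and back. Ldha stood at 182 and 167 CPM in the knockout and 162 and 152 in wild type (log2 fold change 0.15 ± 0.10 SE, edgeR adjusted p = 0.374). Ldhb stood at 375 and 342 CPM against 409.6 and 373 (-0.12 ± 0.11 SE, edgeR adjusted p = 0.486). Slc16a1, which encodes the proton-linked lactate and pyruvate carrier MCT1, fell from 247 and 202 CPM to 149.6 and 143 (log2 fold change -0.62 ± 0.12 SE, edgeR adjusted p = 0.0222). It was the only member called lower, and the call was lost without wild type replicate 1 (-0.47, edgeR adjusted p = 0.0663). Slc16a3, which encodes the lactate exporter MCT4, rested on few counts, 40 and 21 in the knockout against 12 and 16, and did not pass (1.12 ± 0.45 SE, edgeR adjusted p = 0.151).

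Pfkfb enzymes set the level of fructose 2,6-bisphosphate, the main activator of phosphofructokinase. Of the 3 members 0 passed. Pfkfb3, the form with the highest ratio of kinase to phosphatase activity, stood at 92.3 and 86.0 CPM in the knockout and 80.5 and 62.6 in wild type (0.32 ± 0.15 SE, edgeR adjusted p = 0.205). Pfkfb2, the heart type, stood at 43.8 and 47.8 CPM against 46.7 and 45.7, and Pfkfb4, the testis type, at 8.90 and 10.1 against 12.6 and 6.37. They differed by -0.01 ± 0.13 SE and 0.01 ± 0.34 SE in log2, with overlapping groups.

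Entry of pyruvate into mitochondria had 0 of 5 members called. Pdha1 and Pdhb, the subunits of the pyruvate dehydrogenase E1 enzyme, differed by -0.17 ± 0.11 SE and -0.10 ± 0.14 SE in log2. Pdha1 stood at 144 and 143 CPM in the knockout and 173 and 151 in wild type, and Pdhb at 66.5 and 55.04 against 66.5 and 63.6. The groups overlapped for Pdhb and not for Pdha1. Among the kinases that switch this enzyme off, Pdk1 stood at 226 and 205 CPM against 254 and 266 (-0.27 ± 0.10 SE, edgeR adjusted p = 0.126). Pdk3 stood at 16.7 and 16.1 CPM against 21.04 and 20.4 (-0.33 ± 0.16 SE), and Pdk2 at 22.4 and 17.4 against 16.5 and 17.6 (0.22 ± 0.19 SE). For Pdk1 and Pdk3 both knockout libraries lay below both wild type libraries, as was so for 29.2% of all genes tested. For Pdk2 the groups overlapped.

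Of the 4 pentose phosphate members 0 passed. G6pdx, which encodes the rate-limiting dehydrogenase, stood at 30.3 and 33.9 CPM in the knockout and 34.0 and 28.3 in wild type. Pgd, the second dehydrogenase, stood at 47.4 and 45.03 CPM against 44.8 and 46.1. Tkt, a transketolase, stood at 102 and 98.0 CPM against 102 and 89.3, and Taldo1, the transaldolase, at 82.1 and 76.6 against 89.6 and 80.5. All 4 overlapped between the genotypes, with log2 fold changes from -0.10 to 0.06 and standard errors from 0.12 to 0.16, and the edgeR adjusted p ran from 0.628 to 0.927.

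Genes of 1 enzyme family were also compared by the ratio of their counts within a library, which needs no scaling between libraries. These ratios are not per length, so only their change between genotypes has a meaning. Hk2 counts were 0.108 and 0.214 of Hk1 counts in the knockout and 0.0270 and 0.0385 in wild type, a 4.72-fold higher ratio. The Pfkp to Pfkm ratio was 9.50 and 10.1 in the knockout and 3.96 and 3.55 in wild type, 2.61-fold higher, a difference of 1.38 in log2 with SDs of 0.06 and 0.11. Counting error alone gave this difference an SE of 0.10. The Pfkm to Pfkl ratio was 0.552 and 0.604 against 1.07 and 1.56. Within the phosphofructokinase family Pfkm thus gave 8.12% and 7.86% of the counts in the knockout, against 17.0% and 19.3%.

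Ldhb and Ldha, both at 1099 counts or more in each library, had the closest replicates of all ratios in the knockout. The Ldha count carries the pseudogene uncertainty given above. Ldhb counts were 2.07 and 2.05 times Ldha counts there, and 2.53 and 2.45 times in wild type, a log2 difference of -0.28 with SDs of 0.01 and 0.03. Counting error alone gave this difference an SE of 0.05, so the SDs of 2 libraries understate its spread. The Slc2a3 to Slc2a1 ratio was 1.26 and 1.14 against 1.61 and 2.24. The Slc16a3 to Slc16a1 ratio was 0.0366 and 0.0204 against 0.00663 and 0.0110. Pdk1 counts were 10.1 and 11.8 times Pdk2 counts in the knockout and 15.4 and 15.1 times in wild type. Of the 14 pairs with counts in every library, 10 had groups that did not overlap. Several pairs share a gene and the share of other gene pairs that do the same was not computed, so this count has no background; among single genes it was 58.9%. With 2 libraries against 2, the exact two-sided permutation test cannot give a p below 0.333, which these 10 pairs reached, so no pair could pass the threshold.

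**Figure D3:**
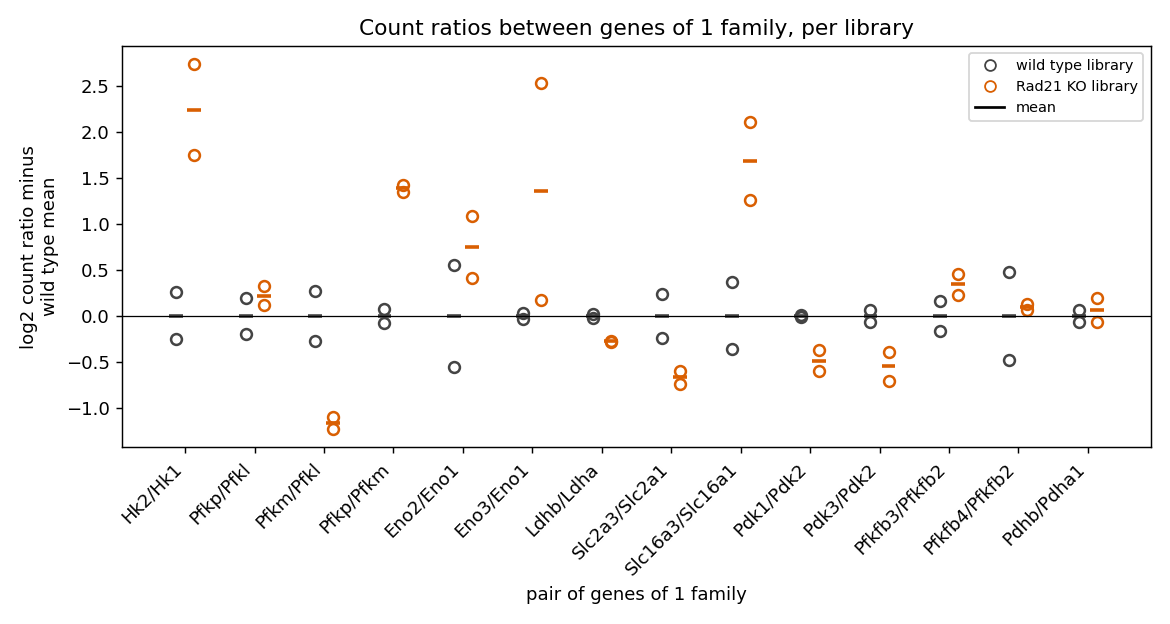
Log2 count ratio of 14 pairs of genes of 1 family in each library, set to 0 at the wild type mean of each pair, with wild type in grey, Rad21 KO in orange and the mean as a line. Hk2/Hk1 lies 2.24 higher and Pfkm/Pfkl 1.16 lower in the knockout, while the knockout libraries of Eno3/Eno1 are far apart (without replicate 1 its difference was 0.17).

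Position was compared by the order of genes in RefSeq (GRCm38.p6). Of the 12 nearest tested neighbours of the 6 members past the threshold, 1 on each side, 1 was called lower, 0 higher, and 11 missed the threshold. These 11 had log2 fold changes from -0.30 to 0.34 and standard errors from 0.12 to 0.47. Those with the larger errors could show large changes only. The neighbour called lower was Parp6, beside Pkm, at -0.61 ± 0.12 SE (edgeR adjusted p = 0.0200). Among all genes tested 12.8% were called. In that annotation 11 members overlap another gene with a row in the table, among them Slc2a1 with Gm12867, Pfkp with Pitrm1, Eno3 with Pfn1 and Tpi1 with Spsb2. Whether counting used strand is not stated, and their counts may share reads.

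Other genes, of carbon metabolism, its known regulators and the hypoxia response, came from 9 lists of 139 genes, of which 112 were tested. Of these 9 were higher (8.04%) and 4 lower (3.57%), beside 7.6% and 5.17% of all genes, with a median log2 fold change of 0.09. In the list of other transport genes, 2 of 8 were higher and 0 lower. Groups did not overlap in 4 genes with the knockout above and in 2 with it below. The largest change of the list was a fall that missed the threshold, in Slc2a6, chosen after its value was seen. Slc2a6 had 3 and 12 counts in the knockout against 32 and 32 (-2.07 ± 0.56 SE, edgeR adjusted p = 0.0551). Emb, which encodes embigin, a partner protein that carries monocarboxylate transporters to the membrane, rose from 183 and 159 CPM to 269 and 306 (0.75 ± 0.12 SE, edgeR adjusted p = 0.0102). Slc16a6, another member of the carrier family, rose from 12.98 and 11.1 CPM to 28.2 and 22.9 (1.09 ± 0.19 SE). So within the carrier family Slc16a1 fell while Slc16a6 rose.

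Other pentose phosphate genes were called in both directions, with 1 of 7 higher and 2 lower. H6pd, the dehydrogenase of the endoplasmic reticulum, rose from 154 and 164 CPM to 381 and 280.1 (1.05 ± 0.15 SE, edgeR adjusted p = 0.00748). Pgls, the lactonase that follows G6pdx, fell from 31.3 and 26.9 CPM to 17.9 and 14.9 (-0.83 ± 0.18 SE) and did not pass if either Rad21 KO replicate 2 or wild type replicate 1 was left out. Prps2, which makes phosphoribosyl pyrophosphate from ribose 5-phosphate, fell from 286 and 309 CPM to 202 and 183 (-0.62 ± 0.10 SE).

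In the list of glycogen, hexosamine and serine branches 2 of 17 genes were higher and 0 lower. Phgdh, the first enzyme of serine synthesis, rose from 53.7 and 40.7 CPM to 71.5 and 85.5 (0.73 ± 0.17 SE), but did not pass without replicate 2 of either genotype. Gpd2, the mitochondrial glycerol 3-phosphate dehydrogenase, rose from 36.2 and 42.0 CPM to 63.4 and 57.1 (0.62 ± 0.14 SE), but did not pass without replicate 1 of either genotype. The citric acid cycle list had 0 of 23 higher and 1 lower, the mitochondrial isocitrate dehydrogenase Idh2, which fell from 113 and 106 CPM to 82.4 and 68.9 (-0.53 ± 0.13 SE). It did not pass when Rad21 KO replicate 2 or either wild type library was left out.

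Lists with no gene past the threshold were the 11 other glycolysis enzymes, the 9 other genes of mitochondrial pyruvate use and the 3 gluconeogenesis genes tested. The most abundant of the glycolysis enzymes, the sugar phosphate enzyme gene Pgm2l1, stood at 118 and 141 CPM in the knockout and 111 and 103 in wild type (0.27 ± 0.12 SE), and Minpp1, a phosphatase gene, at 47.6 and 56.6 against 50.6 and 49.7 (0.06 ± 0.14 SE). Of the pyruvate genes, Pdpr, which encodes a regulatory subunit of the pyruvate dehydrogenase phosphatase, stood at 88.6 and 91.5 CPM against 83.9 and 85.9 (0.08 ± 0.11 SE). Dld, the E3 subunit of the complex, stood at 51.7 and 63.1 CPM against 51.9 and 52.2 (0.14 ± 0.14 SE). Both gluconeogenesis genes were low, with G6pc3 at 3.97 and 2.50 CPM against 2.73 and 2.22 (0.39 ± 0.40 SE) and Pck2 at 23 and 11 counts against 11 and 7 (0.91 ± 0.53 SE).

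Hypoxia-response genes outside glycolysis had 3 of 12 higher and 1 lower, with a median log2 fold change of 0.40. Ndrg1 rose from 29.0 and 18.4 CPM to 89.4 and 109 (2.07 ± 0.22 SE, edgeR adjusted p = 0.00301). Vegfa, which encodes a growth factor for blood vessels, rose from 3.96 and 1.52 CPM to 10.8 and 32.1 (2.96 ± 0.61 SE, edgeR adjusted p = 0.0258), with knockout libraries far apart. Vegfa did not pass in limma-voom or when low counts were kept. Mxi1, an antagonist of MYC, rose from 68.6 and 66.6 CPM to 106 and 107 (0.66 ± 0.11 SE). The histone demethylase gene Kdm3a fell from 299 and 277 CPM to 216 and 222 (-0.40 ± 0.10 SE) and did not pass once any library was left out.

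Among 22 known regulators of glycolysis genes 1 was higher and 0 lower. That gene, Mlxip, which encodes the glucose-sensing factor MondoA, rose from 106 and 116 CPM to 149 and 155 (0.45 ± 0.10 SE) but did not pass once any library was left out. Hif1a, Myc and Txnip were chosen after their values were seen and did not pass. Hif1a stood at 196 and 223 CPM in the knockout and 197 and 171 in wild type, Myc at 7.67 and 11.5 against 6.83 and 8.17, and Txnip, an inhibitor of glucose uptake, at 814 and 754 against 743 and 539. Their log2 fold changes were 0.19 ± 0.12 SE, 0.35 ± 0.28 SE and 0.29 ± 0.16 SE. Epas1, Mycn and Mlxipl, also picked after their values were seen, did not pass, and their groups did not overlap. Epas1 stood at 5.61 and 6.81 CPM against 3.42 and 3.32 (0.88 ± 0.31 SE). Mycn stood at 5.20 and 5.28 CPM against 3.55 and 1.66 (1.00 ± 0.42 SE). Mlxipl stood lower in the knockout, at 1.10 and 1.53 CPM against 2.46 and 2.08 (-0.78 ± 0.43 SE). Over the 22 regulators 13 log2 fold changes were positive and 9 negative. Groups did not overlap in 8 regulators with the knockout above and in 4 with it below. Among all genes tested 58.9% did not overlap.

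**Figure D4:**
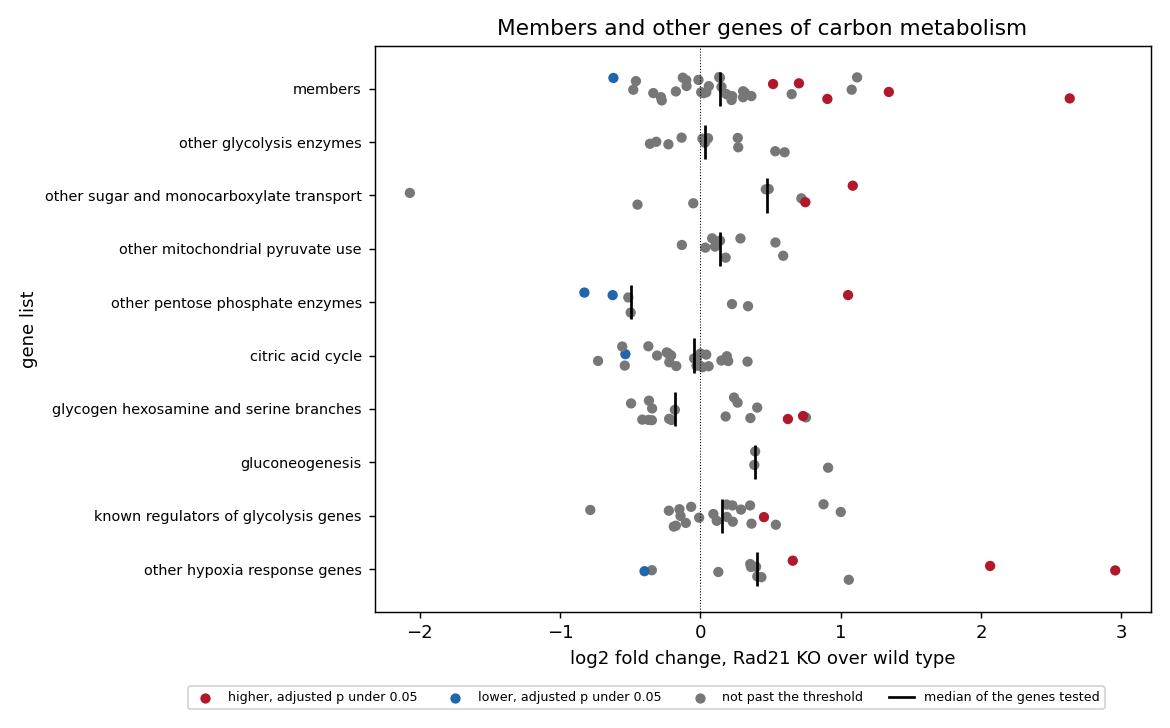
Log2 fold change, Rad21 KO over wild type, of each tested gene in the members and in 9 lists of other genes, with genes past the threshold in red (higher) or blue (lower) and the median of each list as a line. The members' median is 0.14 and that of the hypoxia-response list 0.40, and called genes lie on both sides in the members, the pentose phosphate list and the hypoxia-response list.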

How the data were processed

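RNA-seq values were deposited by the authors as estimated counts (named count equivalents by the authors) for each Ensembl gene, whole numbers whose totals differ between libraries. Per the submitters' processing notes the genome is mm9. Aligner, counter and strand setting: not given in the sources used here. The knockout columns misspell the gene, and the remaining text of each column name matched it to its sample. Of 17849 identifiers 17342 had a symbol.

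Counts, rounded as a precaution, were tested on the whole table in R 4.3.3 with edgeR 4.0.16 (TMM normalization after filterByExpr, quasi-likelihood test of genotype, Benjamini-Hochberg adjustment over 12003 genes, threshold 0.05). Fold changes are Rad21 KO over wild type, standard errors come from the F statistic, and CPM uses the TMM-scaled library sizes. The procedure was tested on simulated data. Alternatives were DESeq2 1.42.0, limma-voom 3.58.1, DESeq2 size factors, no filter, each library left out, a replicate block, and Lars2 and Gm15564 left out.

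Members and lists were chosen with earlier results of these data known. The rule for values in every library took the members past the threshold and the most abundant member of each other step (further members were added after their values were seen), and from other lists up to 4 genes that passed, by size of change, or the 2 most abundant where none did. Nothing in the labels says whether replicates are separate animals, and the spread that the p-values rest on may be technical. Counting limits cover counting error only. Peaks, on mm9, were not placed at genes, and protein sequences were not used here. The value of 1 marker gene is not reported here.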

Additional observations from a re-analysis of the deposited data

How the results depend on the processing

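The 5 members called higher and 1 called lower were the same genes with DESeq2's size factors, DESeq2, limma-voom, without Lars2 and Gm15564, and with the replicate block. With no filter on low counts, where 17003 genes were tested, Hk2 alone was called (1 higher and 0 lower), beside 285 higher and 148 lower genes in all, with adjusted p from 0.0543 to 0.0933 for the other 5. Leaving out 1 library gave 3 to 6 members higher and 0 to 2 lower, and 574 to 880 genes higher and 373 to 558 lower in all. Hk2 passed in all 10 alternatives, Slc2a1 and Pfkp in 9, and Slc2a3, Pkm and Slc16a1 in 8. The sign of no called gene reversed. With the replicate block, 644 genes were higher and 381 lower. Whether the replicate numbers pair the samples is not stated. Deviations of same-numbered libraries from their genotype means had a correlation of 0.03. With 2 libraries per genotype this value cannot settle the question. Of the other genes called, Ndrg1 and Mxi1 passed in all 10 alternatives, and with the block the calls of Idh2, Phgdh, Gpd2, Mlxip, Vegfa and Kdm3a were lost. With 2 libraries per genotype, genes such as Slc16a3 and Eno2, at 12 to 40 counts per library, could show large changes only.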
